A study of Mus musculus with 2 samples.

Results

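Tetraspanins are small membrane proteins that cross the membrane repeatedly and gather integrins, immunoglobulin-superfamily proteins and each other into membrane microdomains. The genes described here were 7 family members, Cd9, Cd63, Cd81, Cd82, Cd151, Cd53 and Cd37, taken as every probe set that the platform annotation pairs with exactly 1 of these symbols. That gave 12 probe sets of the 10829 with 1 symbol, and 7 genes of 8251. The choice was made with the difference between the genotypes already known, so the values below are a description and carry no test. Of the members, 5 are widely expressed (Cd9, Cd63, Cd81, Cd82 and Cd151) and 2 are largely restricted to leukocytes (Cd53 and Cd37), as background knowledge of the family.

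In brain, Cd9 and Cd81 are known from glia and myelin, Cd63 from late endosomes, lysosomes and exosomes, and Cd53 and Cd37 from microglia, macrophages and lymphocytes. In mouse models with amyloid plaques, Cd9 and Cd63 belong to the genes raised in activated microglia.

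The data were 2 oligonucleotide arrays of total RNA from mouse cerebral cortex, 1 of PS cDKO mice (a conditional double knockout of the presenilins) and 1 of their controls, both aged 6 months. The labels give no alleles, Cre driver, strain, sex or number of animals for either array. In the published PS cDKO line, Cre under the Camk2a promoter removes a floxed presenilin gene from excitatory neurons of the postnatal forebrain, and Psen2 is deleted throughout. The other cortical cells of that line therefore keep 1 presenilin gene. With 1 array per genotype, the spread between animals is unknown, no difference below was tested, and no p-value is given.

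The 2 arrays had median intensities of 305 in the PS cDKO and 300 in the control. Intensities were compared after scaling the PS cDKO array by 0.034 on the log2 scale, with a floor at a signal of 232, the 40th percentile of both arrays pooled. A probe set below the floor on 1 array gives only a bound, written "at least", and one below it on both gives no ratio. The floor is not a detection call, since neither detection calls nor mismatch signals were used here. Psen2 had 94.9 in the PS cDKO and 105 in the control, both below the floor, and so gave no check of the genotype. Of the 11 neuronal marker genes with a probe set, all 11 gave a ratio.

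The start regions of 4 members are shown to set the leukocyte-restricted genes beside widely expressed ones. Each is the RefSeq window of 300 bases from 250 before to 50 after a transcription start in build GRCm38.p6, read along the gene's strand. They lie at chr6:125494711-125495010 on the minus strand (Cd9), chr7:143052500-143052799 on the plus strand (Cd81), chr3:106790100-106790399 on the minus strand (Cd53) and chr7:45238790-45239089 on the minus strand (Cd37). Capitals mark GGGCGG, the GC box bound by Sp1-type factors, and GAGGAA, the core bound by PU.1 of myeloid and B cells, or its reverse TTCCTC.
Cd9: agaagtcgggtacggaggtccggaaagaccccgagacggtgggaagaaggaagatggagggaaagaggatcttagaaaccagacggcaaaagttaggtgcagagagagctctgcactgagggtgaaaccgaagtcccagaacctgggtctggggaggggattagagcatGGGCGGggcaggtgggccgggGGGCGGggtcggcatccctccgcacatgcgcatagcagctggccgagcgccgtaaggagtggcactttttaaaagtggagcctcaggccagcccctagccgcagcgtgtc
Cd81: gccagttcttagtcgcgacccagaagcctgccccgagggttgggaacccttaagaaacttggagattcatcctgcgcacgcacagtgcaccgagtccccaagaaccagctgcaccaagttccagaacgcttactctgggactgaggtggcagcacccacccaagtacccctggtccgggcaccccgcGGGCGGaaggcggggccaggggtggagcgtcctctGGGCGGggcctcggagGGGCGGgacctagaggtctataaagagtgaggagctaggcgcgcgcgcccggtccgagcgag
Cd53: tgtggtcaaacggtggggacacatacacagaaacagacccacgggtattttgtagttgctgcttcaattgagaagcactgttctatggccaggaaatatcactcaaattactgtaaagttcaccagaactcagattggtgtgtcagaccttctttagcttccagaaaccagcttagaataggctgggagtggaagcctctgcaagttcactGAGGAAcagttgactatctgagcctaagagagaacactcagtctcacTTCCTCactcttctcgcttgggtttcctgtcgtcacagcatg
Cd37: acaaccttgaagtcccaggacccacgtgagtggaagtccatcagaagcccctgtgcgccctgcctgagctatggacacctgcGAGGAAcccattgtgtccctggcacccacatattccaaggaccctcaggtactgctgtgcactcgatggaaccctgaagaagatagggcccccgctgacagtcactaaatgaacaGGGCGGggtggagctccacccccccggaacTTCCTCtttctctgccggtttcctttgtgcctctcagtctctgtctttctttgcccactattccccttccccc

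Both leukocyte-restricted genes held GAGGAA on each strand. In Cd53 the matches began 39 bases before and 8 bases after the start, and in Cd37 168 and 23 bases before it. The Cd9 and Cd81 windows held none. They held GGGCGG instead, at 81 and 60 bases before the start in Cd9 and at 63, 28 and 12 bases before it in Cd81. Cd37 also held 1 GGGCGG, 53 bases before its start. The other members did not divide along the same line. The table gave 11 windows for the 7 genes, and GAGGAA was also in the Cd63 window and in 1 of 4 Cd82 windows. GGGCGG was in 2 of the 4 Cd82 windows and in 1 of 2 Cd151 windows. Over 32851 RefSeq windows of the same length, searched on both strands, 28.3% held GAGGAA and 35.7% GGGCGG, so either match is common. Not every window lies at the outer end of its gene. The start used for Cd37 lies 501 bases inside the annotated gene, whereas those of Cd9, Cd81 and Cd53 are at its end. The start used for Cd63 lies 13114 bases inside, and that window is not printed. A match of these letters is a description of the sequence, and nothing on these arrays measured binding.

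Of the 7 genes, Cd9 and Cd63 were higher in the PS cDKO by more than 1.5-fold, and the other 4 with a ratio lay within 1.2-fold of the control. Among the 12 probe sets, 8 cleared the floor on both arrays, 1 only in the PS cDKO and 3 on neither. Probe sets at least 1.5-fold higher in the PS cDKO numbered 2 of the 9 with a ratio or bound, beside 1.31% of 7810 probe sets over the whole array. At least 1.5-fold lower were 0 of the 9, beside 1.18% of the array. Since the members were chosen on this contrast, these shares are given without a reading.

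Cd9 organises integrins and the fusion of membranes. Its only probe set, 95661_at, had an intensity of 563 in the PS cDKO and 176 in the control. The control value lay below the floor and the PS cDKO value well above it. The difference was therefore a bound, at least 2.49-fold higher (log2 ratio 1.31), and without a floor the fold after scaling was 3.27, against a control signal that gives no level. Cd9 entered the measured genes only through its PS cDKO signal, so it could give a ratio only by being higher there. Of 469 probe sets above the floor in the PS cDKO alone, 4 had a bound as high, Cd9 included. With the floor at the 60th percentile the bound was 1.43-fold.

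Cd63 is a tetraspanin of late endosomes, lysosomes and secreted vesicles. Probe set 160493_at had 478 in the PS cDKO and 273 in the control, both above the floor. The fold change was 1.79 (log2 ratio 0.84). Of the 7091 probe sets that cleared the floor in PS cDKO and control alike, 15 had a log2 ratio as high, Cd63 included. The control signal was not far above the floor, and with the floor at the 60th percentile it lay below it, leaving a bound of 1.21-fold.

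The repeated measurement within these arrays comes from genes with more than 1 probe set. Over 749 such genes, log2 ratios of individual probe sets had an SD of 0.21, estimated from the differences between the 2 brightest probe sets of a gene. That spread holds only variation between probes on the same 2 hybridisations and nothing of the variation between mice, and the members, chosen on this contrast, were not tested against it.

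**Figure D1:**
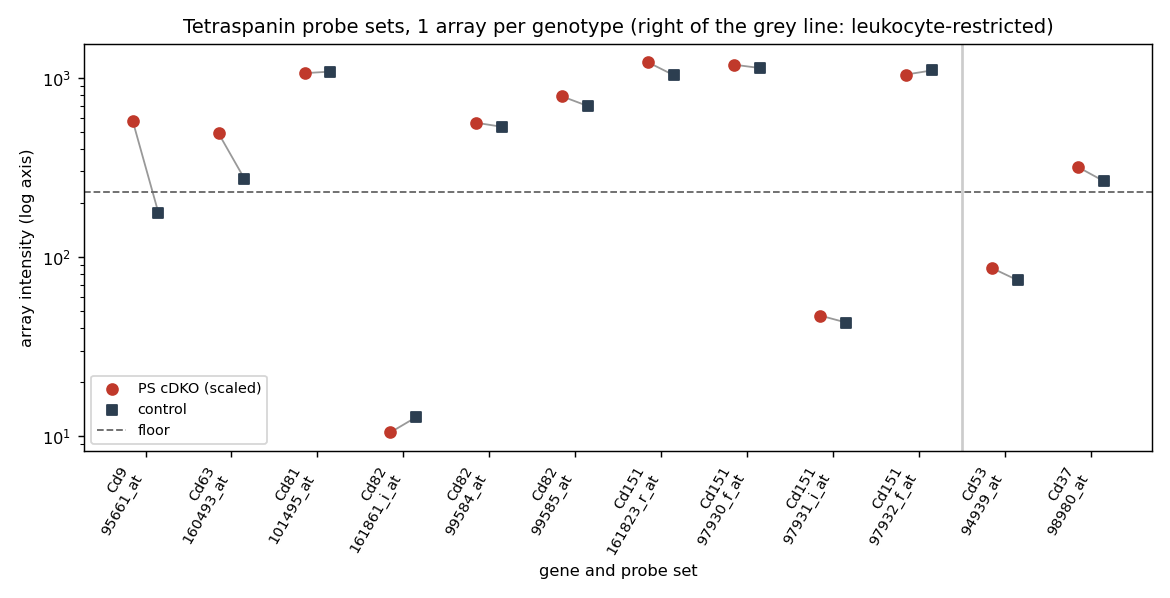
Array intensity (log axis) of the 12 tetraspanin probe sets in the PS cDKO (red circles, after scaling) and the control (dark squares), 1 array each, with the floor of 232 as a dashed line. Cd9 crosses the floor between the arrays, Cd63 lies above it on both, and Cd53 and 1 probe set each of Cd82 and Cd151 lie below it on both.

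Cd81 is a close relative of Cd9 and is abundant in glia. Its probe set 101495_at had 1036 in the PS cDKO and 1083 in the control. The log2 ratio of -0.03 was near 0, and 6403 of the 7091 probe sets differed by as much or more. Its sign turned under quantile normalization (0.021) and lowess (0.0065), so no direction can be given for it. Cd81 was thus close to the control level on the same arrays on which Cd9 stood at least 2.49-fold higher.

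Cd82 is known as a suppressor of metastasis and restrains integrin and receptor signalling. It had 3 probe sets. Probe set 99585_at had 768 in the PS cDKO and 694 in the control, and 99584_at had 548 in the PS cDKO and 532 in the control. Their log2 ratios of 0.18 and 0.08 gave a gene value of 0.13, or 1.09-fold. The remaining one, 161861_i_at, had 10.2 in the PS cDKO and 12.8 in the control, far below the floor on both arrays. With that probe set included, as happens without a floor, the gene value was -0.0093. The direction of so small a difference therefore hangs on a signal that gives no level.

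Cd151 binds laminin-binding integrins in basement-membrane adhesion. It had 4 probe sets, all with suffixes that this array type gives to probe sets sharing probes with related transcripts or built under relaxed rules. Probe set 161823_r_at had 1189 in the PS cDKO and 1032 in the control. For 97930_f_at the signals were 1156 in the PS cDKO and 1133 in the control, and for 97932_f_at they were 1019 in the PS cDKO and 1099 in the control. These gave log2 ratios of 0.24, 0.06 and -0.08, with an SD of 0.16 over the 3 probe sets. The signs did not match, and the gene value was 0.07, or 1.05-fold. Probe set 97931_i_at, annotated to the same transcript record as 97932_f_at, had 45.9 in the PS cDKO and 43.0 in the control, below the floor on both. Signals annotated to 1 gene thus ran from 45.9 to 1189 in the PS cDKO, and from 43.0 to 1133 in the control.

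Cd37 is a tetraspanin of B cells that is also found on other leukocytes. Its probe set 98980_at had 310 in the PS cDKO and 265 in the control, both just above the floor. The log2 ratio was 0.26, or 1.20-fold, and 924 of the 7091 probe sets had one as high. With the floor at the 60th percentile it gave no ratio. A signal just above the floor does not show that the transcript was present, since 11 of 14 lymphocyte markers and 7 of 8 neutrophil markers with a probe set also gave a ratio or a bound.

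Cd53 is carried by most leukocytes, microglia among them. Its probe set 94939_at had 84.5 in the PS cDKO and 73.9 in the control, both below the floor, so it gave no ratio. Its log2 ratio without a floor, 0.23, rests on signals that cannot be ranked.

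**Figure D2:**
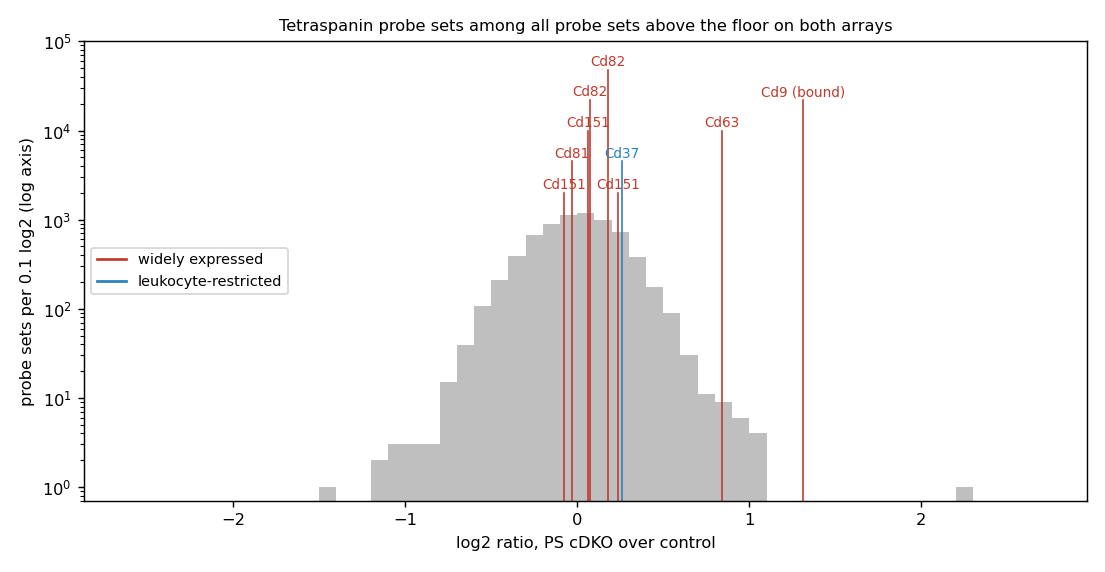
Histogram of the log2 ratio, PS cDKO over control, for the 7091 probe sets that cleared the floor in PS cDKO and control (grey, log axis), with the 9 tetraspanin probe sets that gave a ratio or bound as lines, red for widely expressed and blue for leukocyte-restricted genes. Cd63 at 0.84 and the Cd9 bound at 1.31 lie at the upper edge, and the other 7 lie between -0.08 and 0.26.

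Set side by side, the larger differences lay among the widely expressed members and not in a leukocyte-restricted one. The 5 widely expressed genes had gene values from -0.03 to 1.31 with a median log2 ratio of 0.13. The leukocyte-restricted genes had a single value, 0.26 for Cd37. The median over all 5883 genes with a ratio or bound was 0.01. With 1 measured gene on the leukocyte side, the classes cannot be compared further. Counting every probe set as deposited, without scaling or floor, 9 of 12 member probe sets were higher in the PS cDKO, beside 52.4% of the 12418 on the array.

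Few other members of the family gave a ratio. Of 24 other tetraspanin genes looked for, 13 had a probe set with 1 symbol, and 6 of these gave a ratio. Of the 6, 3 were higher and 3 lower, with a median log2 ratio of 0.01, and 0 reached 1.5-fold in either direction. Over all genes, 1.12% were higher and 0.816% lower by that much, so a count of 0 among 6 genes carries no reading. The highest were Tspan13, with 625 in the PS cDKO and 499 in the control (1.28-fold), and Tspan9, with 923 in the PS cDKO and 763 in the control (1.24-fold). Tspan31 had 1373 in the PS cDKO and 1579 in the control and was 1.12-fold lower. Tspan4 was 1.07-fold lower, with 802 in the PS cDKO and 879 in the control. Tspan33, which escorts the protease Adam10 to the cell surface, was 1.05-fold of the control, with 604 in the PS cDKO and 589 in the control. Prph2, a structural tetraspanin of photoreceptor discs, had 2177 in the PS cDKO and 2310 in the control. Intensities of different probe sets are not on a common scale and were not ranked against each other. Tspan5, another escort of Adam10, had 172 in the PS cDKO and 218 in the control, and Tspan32, a leukocyte tetraspanin, had 154 in the PS cDKO and 117 in the control. Both lay below the floor on both arrays, as did Tspan3, Tspan6, Tspan8, Tspan12 and Rom1.

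Proteins that bind tetraspanins were mixed. Of 15 partner genes with a ratio or bound, 8 were higher and 7 lower, with a median of 0.07. At least 1.5-fold higher was 1 of the 15, Itgam, beside 1.12% of all genes. A count of 1 in so short a list is given without a reading. The integrin subunit Itgam, which also marks microglia, had 608 in the PS cDKO and 387 in the control (1.61-fold). The 2 immunoglobulin-superfamily partners shared by Cd9 and Cd81 lay on opposite sides. Ptgfrn had 417 in the PS cDKO and 314 in the control (1.36-fold higher), and Igsf8 had 915 in the PS cDKO and 1263 in the control (1.35-fold lower). Timp1, a metalloprotease inhibitor that binds Cd63, had 1193 in the PS cDKO and 955 in the control (1.28-fold higher). The other genes of late endosomes, lysosomal membranes and exosomes with a ratio or bound had log2 ratios from -0.25 to 0.36. Their median was 0.08, with 8 of 14 higher and 0 past 1.5-fold in either direction. Of all genes, 1.12% were higher and 0.816% lower by that much, so the 0 in so short a list carries no reading. Pmel, the melanosomal fibril protein that Cd63 helps to sort, was the farthest from 0, with 636 in the PS cDKO and 507 in the control (1.28-fold). Npc1, a lysosomal cholesterol transporter, was 1.18-fold higher, while the late endosomal GTPase Rab7 was 1.19-fold lower.

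In bulk cortex, more cells of a type and more RNA per cell cannot be told apart, and markers of several cell types differed beside Cd9 and Cd63. Of 16 microglia and macrophage markers with a ratio or bound, 15 were higher, beside 51.9% of all genes, with a median of 0.36. A gene with only an upward bound can count only as higher, in the list as among all genes. The summed signal of the list's 30 probe sets was 15037 in the PS cDKO and 11152 in the control. This sum and the later ones use the scaled PS cDKO signal, include probe sets below the floor and leave out negative values. They weigh bright probe sets most, although signals of different probe sets are not on a common scale. At least 1.5-fold higher were 5 of the 16 markers, beside 1.12% of all genes. C1qa, a complement chain, was 2.11-fold and Ctss, a lysosomal protease, 1.79-fold higher, the same fold as Cd63. Aif1, Fcer1g, Fcgr2b and Lyz2 were below the floor on both arrays, as Cd53 was, and Ptprc, the leukocyte common antigen, was at -0.05. For astrocyte markers the median was 0.14, with 7 of 10 higher and a summed signal of 23361 in the PS cDKO and 20402 in the control. Gfap, 4.68-fold higher, was the 1 gene of that list past 1.5-fold, beside 1.12% of all genes higher by that much. The part of either cell type in the Cd9 and Cd63 differences was not tested.

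Markers of other cells had medians nearer to 0 or below it. Oligodendrocyte and myelin markers, which matter here because Cd9 and Cd81 are myelin proteins, had a median of -0.13, with 3 of 7 higher and a summed signal of 10919 in the PS cDKO and 11864 in the control. Neuronal markers had a median of -0.20, with 4 of 11 higher and sums of 17653 in the PS cDKO and 21515 in the control. Lymphocyte markers had a median of 0.06, with 7 of 11 higher, and neutrophil markers one of 0.08, with 4 of 7 higher. Neither leukocyte list had a gene past 1.5-fold, beside 1.12% of all genes higher and 0.816% lower by that much. Endothelial and mural markers had a median of -0.05, with 3 of 6 higher, and blood markers one of -0.11, with 1 of 3 higher. Choroid plexus and meningeal markers had a median of 0.04, with 5 of 9 higher. In that list 2 genes were at least 1.5-fold lower, beside 0.816% of all genes. They were Ttr, the transthyretin of choroid plexus (1.84-fold lower), and Igfbp2, a binding protein of insulin-like growth factors (1.60-fold lower).

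**Figure D3:**
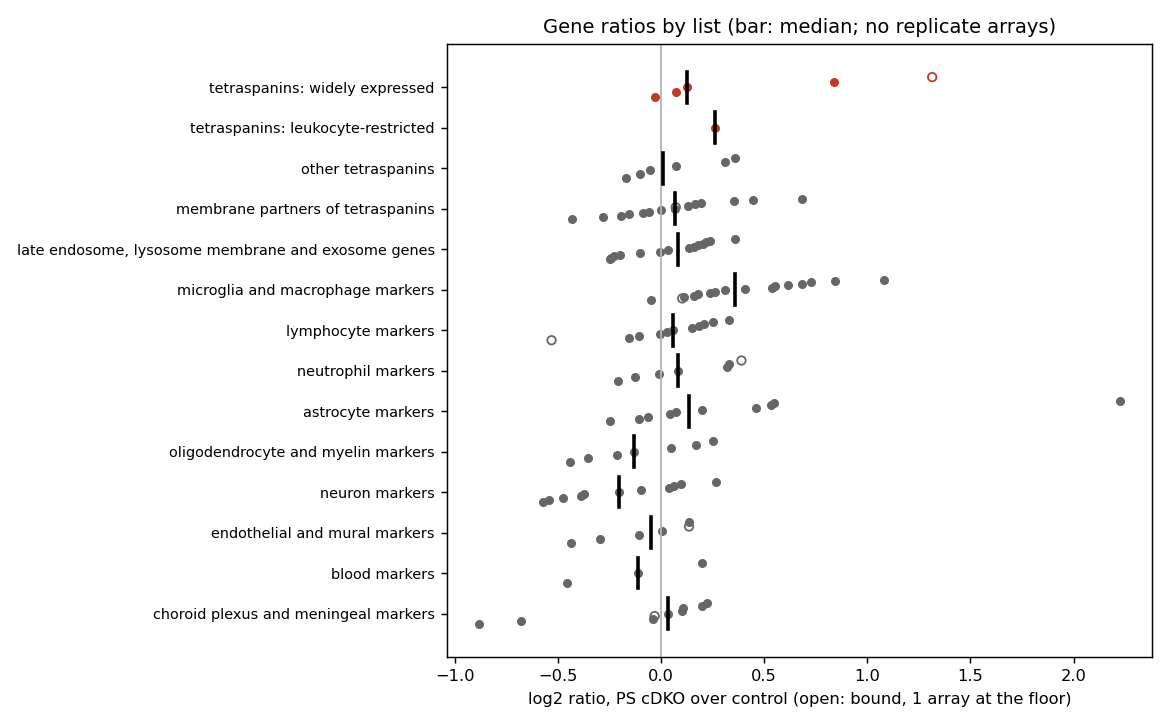
Log2 ratio, PS cDKO over control, of each gene with a ratio (filled) or a bound (open) in the tetraspanin classes (red) and in 12 other gene lists (grey), with the median of each as a bar. The microglia and macrophage list has the highest median of these lists, 0.36, and the other tetraspanins lie around 0.

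The genes whose signals were most like those of a member were found from the 2 arrays, as the distance in log2 signal over 8239 other genes, without a floor. Nearest to Cd9 were Kif5b, a kinesin heavy chain, C1qb, a complement chain, and Cd74, the invariant chain, at distances of 0.21, 0.38 and 0.43. Their signals were 494, 657 and 482 in the PS cDKO, against 166, 218 and 227 in the control. These control signals, like that of Cd9, lay below the floor of 232 and give no level. All 3 distances were larger than those found for Cd63 and Cd81. Nearest to Cd63 were Muc5ac (distance 0.08), Msr1 (0.12), a macrophage scavenger receptor, and Sgo1 (0.14). Nearest to Cd81 were Bhmt, Usf1 and Degs2, the farthest at 0.022. With 2 arrays such likeness says only that both signals were alike. Genes alike in both signals have similar ratios by construction, and signals of different probe sets are not on a common scale.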

How the data were processed

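Total RNA of cerebral cortex was measured on 2 arrays, 1 per group of the labels. The deposited table holds 1 linear intensity per probe set and array, 12418 in all. How the authors summarised, background-corrected and scaled these intensities is not stated in the labels. Values below 0, 18 in the PS cDKO and 13 in the control, show that a subtraction preceded deposit.

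Probe sets were named through the platform annotation (10829 with 1 symbol, 396 with several, 1193 with none). Symbols were updated by gene ID for 10813 through a RefSeq table of GRCm38.p6, and all 7 members matched its start regions. Scaling multiplied the PS cDKO intensities by 1 factor, which set the median log2 ratio to 0 among probe sets brighter than the median of their array in both groups. The floor was set next and log2 taken last. A gene value averages its probe sets that cleared the floor in both groups, or its bounds of 1 direction where it has no others. The scaling and ratios were checked on simulated data, with changes set only in probe sets far above the floor. Bounds and ratios near the floor were not checked in this way.

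Members and gene lists were chosen with earlier results of these data known. Named genes were the members, other tetraspanins, Psen2, up to 4 genes per list by absolute log2 ratio, bounds excluded, of which those that bear on the members are printed, and the 3 genes nearest to Cd9, Cd63 and Cd81. Other genes, such as Tspan5, Ptprc or those below the floor, were named after their values were seen. The alternatives were 3 scalings, 3 floors, the brightest probe set of a gene, and leaving out suffixed probe sets. Having 1 array per group limits the precision. Python 3.11.15, numpy 2.4.6, pandas 2.3.3, statsmodels 0.14.6 and matplotlib 3.10.9 were used.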

Additional observations from a re-analysis of the deposited data

How the results depend on the processing

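Over 12 results and 8 alternatives, 81 of 93 values moved by less than the SD of 0.21 between probe sets of a gene (counts: by less than 1.5 times), and 12 moved more. With the floor at the 60th percentile, the log2 bounds were 0.52 for Cd9 and 0.28 for Cd63, Cd37 gave no value, and member probe sets at least 1.5-fold higher numbered 0. Cd9 had a log2 ratio of 1.71 both without a floor and with one at the 20th percentile. A bound falls as the floor rises, by its construction. Some values could not move. A gene with 1 probe set, unsuffixed, keeps its value when the brightest is taken or suffixed probe sets are left out. With a floor, the leukocyte-restricted median repeats the Cd37 value. The count of 81 includes such values, so it is not a measure of robustness. Without suffixed probe sets, Cd151 gave no value and the median of the widely expressed genes was 0.48, over fewer genes. Over the whole array, probe sets at least 1.5-fold higher numbered 266 with the 20th-percentile floor, 45 with the 60th and 787 without one. Those at least 1.5-fold lower numbered 147, 60 and 337 in that order, beside 102 higher and 92 lower as reported. The median of the other tetraspanins ran from -0.05 to 0.07. The largest shift of the all-gene median by a scaling was 0.032. No paired analysis was possible because the arrays are single in their groups, which also kept any from being omitted. Signal over background could not be judged, since no background values were used.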
